A study of Homo sapiens with 15 samples.

Results

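The comparison described here set 3 libraries of cells exposed to the higher concentration of a particulate reference material (SRM_IC50) against 3 libraries of cells exposed to the lower one (SRM_IC25), 6 of the 15 libraries of the series. Both groups were differentiating cells of H9, an established line of human embryonic stem cells labelled wild type, collected on day 7. All cultures spent 5 days in serum medium without pluripotency factors and then had ascorbic acid, β-glycerophosphate and vitamin D3 added, a mixture used to drive osteogenic (bone-forming) differentiation. Particles were present from day 0 to day 7. SRM is a standard particulate sample of NIST, given at 5.9 µg/mL in SRM_IC50 and at 0.003 µg/mL in SRM_IC25, a ratio of 1967. The names stand for concentrations that inhibit by 50% and 25%, which the labels base on protein. The 3 vehicle libraries (UNT, 0.1% DMSO, no particle) gave the level without particle. The other 6 libraries came from cells given collected fine particulate matter (FPM), at 1.4 µg/mL in FPM_IC50 and 0.00062 µg/mL in FPM_IC25. Members were the 15396 genes, of 60675 listed, that reached 1 CPM, the count scaled to the library total in 3 of the 6 SRM libraries. Whether the replicates came from separate cultures is not stated, so all p-values measure the spread between these samples only, which may be technical.

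Cells that leave the pluripotent state stop making the transcription factors OCT4 (gene POU5F1), NANOG and SOX2, which hold each other's genes active in embryonic stem cells together with FGF and Nodal signals. In serum, human embryonic stem cells give rise to several fates at once, among them mesoderm, neuroectoderm, neural crest and cells with the genes of amnion and trophoblast, the epithelia outside the embryo. Syncytiotrophoblast, the fused outer layer of the placenta, makes the hormone chorionic gonadotropin and fuses by envelope proteins of ancient retroviruses. Bone-forming cells are recognised by RUNX2 and SP7 and later by the matrix proteins bone sialoprotein (IBSP) and osteocalcin (BGLAP).

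A pair of promoters is shown because their genes moved in opposite directions. NANOG was higher, though not among the 12 largest rises, and CGA, the alpha subunit of chorionic gonadotropin, was far lower. Each line gives the 250 bases before the start of the gene in RefSeq (GRCh38.p14), from 5′ to 3′ along the gene. Capitals mark the composite OCT4-SOX2 element (CATTGT, any base, then ATGCAAA) in NANOG (chr12:7789152-7789401, plus strand) and the cyclic AMP response element TGACGTCA in CGA (chr6:87095107-87095356, minus strand), searched on both strands. The element in NANOG lies on the reverse strand.
NANOG: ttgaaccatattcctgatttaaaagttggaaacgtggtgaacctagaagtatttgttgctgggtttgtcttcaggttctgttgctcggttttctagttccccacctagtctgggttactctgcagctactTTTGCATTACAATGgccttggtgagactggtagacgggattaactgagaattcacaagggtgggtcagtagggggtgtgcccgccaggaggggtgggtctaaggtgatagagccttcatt
CGA: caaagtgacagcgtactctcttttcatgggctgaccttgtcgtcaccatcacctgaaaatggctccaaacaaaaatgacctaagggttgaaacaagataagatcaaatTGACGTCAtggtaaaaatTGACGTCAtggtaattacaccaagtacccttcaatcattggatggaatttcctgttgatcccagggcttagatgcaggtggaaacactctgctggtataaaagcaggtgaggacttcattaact
The OCT4-SOX2 element was found in 2 of 35116 RefSeq promoters (0.0057%), and in 1 of the 15 pluripotency genes that had an entry. The cyclic AMP element, present as 2 copies in CGA, was found in 578 promoters (1.65%), and in 1 of 13 syncytiotrophoblast genes. Both windows lie inside the longer gene spans of GENCODE 29 (NANOG chr12:7787794-7799141, CGA chr6:87085498-87095406). A match describes the letters in the window and no binding was measured.

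Total counts per library were 12 to 29.3 M at SRM_IC50, 13.2 to 51.2 M at SRM_IC25 and 17.3 to 20.1 M in UNT. A floor of 3 counts was worth 0.103 to 0.249 CPM at SRM_IC50 and 0.0586 to 0.228 CPM at SRM_IC25, for counting error only. The leading principal component held 55.6% of the variance and placed the SRM_IC50 libraries between 43.8 and 46.65, and the SRM_IC25 and UNT libraries between -30.66 and -14.95. Late markers of bone were at or near 0. IBSP was at 0 FPKM, which scales counts by gene length and library total, in all 6 SRM libraries and BGLAP at 0.0428 to 0.23 FPKM at SRM_IC50 and 0.0991 to 0.319 FPKM at SRM_IC25. Markers of other fates were low or near 0 in these libraries. The blood factor GATA1 was at 0, and the leukocyte gene PTPRC, the endothelial gene PECAM1 and the endoderm factors FOXA2 and SOX17 stayed at or under 0.0642 FPKM. Others were low but present, with the endothelial cadherin CDH5 at 0.529 to 0.681 FPKM at SRM_IC50 and 1.03 to 1.23 FPKM at SRM_IC25, the yolk sac protein AFP at 1.02 to 1.55 FPKM at SRM_IC50 and 0.271 to 0.624 FPKM at SRM_IC25, and the embryonic globin HBE1 at 0.275 to 0.508 FPKM over both doses. POU5F1 was 183 to 255 FPKM at SRM_IC50, against 55.6 to 74.6 FPKM at SRM_IC25.

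Of the 15396 genes, 4250 (27.6%) differed between the SRM doses at an adjusted p under 0.05, by edgeR's quasi-likelihood test with Benjamini-Hochberg adjustment. At SRM_IC50, 2288 (14.9%) were higher and 1962 (12.7%) lower. Every adjusted p below comes from this test unless another is named. In 6463 genes (42.0%) the CPM of the groups did not overlap. Most changes were small, with a median size of 0.62 on the log2 scale among called genes. Changes above 2-fold numbered 449 higher and 636 lower, and changes above 8-fold numbered 14 higher and 46 lower. Without SRM_IC25 replicate 2, the most deeply sequenced of the SRM and UNT libraries, 1392 genes were higher and 1410 lower. Without SRM_IC50 replicate 2, 1497 were higher and 1347 lower.

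The side of UNT on which these genes lay differed between the doses. The 449 genes more than 2-fold higher had a median log2 difference from UNT of 1.24 at SRM_IC50 and -0.22 at SRM_IC25. The 636 genes more than 2-fold lower had -1.36 at SRM_IC50 and 0.14 at SRM_IC25. Both of these differences share the UNT libraries, and each shares its SRM libraries with the dose comparison, so they are given side by side only.

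Base composition moved with the smaller changes. Genes that were higher had a median GC content of 43.6%, those lower 54.2% and those not called 48.5%, in the longest transcript of each gene. Across 15327 genes, which are not independent replicates, Spearman's rho between the log2 change and GC content was -0.32. For the log2 difference from UNT, rho was 0.71 at SRM_IC25 and 0.17 at SRM_IC50, and both share the UNT libraries. The medians against UNT given above were not corrected for GC content. With genes ordered by GC content into 10 equal bins, the bin with the least GC had 27.5% of its members higher and 4.5% lower, and the bin with the most had 8.68% higher and 22.8% lower. Among changes above 2-fold the medians were closer, at 49.5% and 52.3%. Exons of 1532 called genes (36%) overlap a gene on the opposite strand, beside 39.5% of all tested genes, and the strand setting of the counting is not given in the sources used here, so such counts are less certain. KRT7, GABRP, CYP19A1, PAX6, WNT11 and CYP1B1, described below, are among them. So are FGF2, ETV4, DUSP6, RARB, MEIS1, GREM1, GRHL2, GATA6, FEZF1 and TFAP2A. HSPD1, SLC7A11, GCLC, TM4SF18, HPAT5 and MRGPRX1 belong there too, and further described genes may as well. With a GC correction 1827 genes were higher and 1758 lower. The part of GC content in single changes was not tested.

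**Figure D1:**
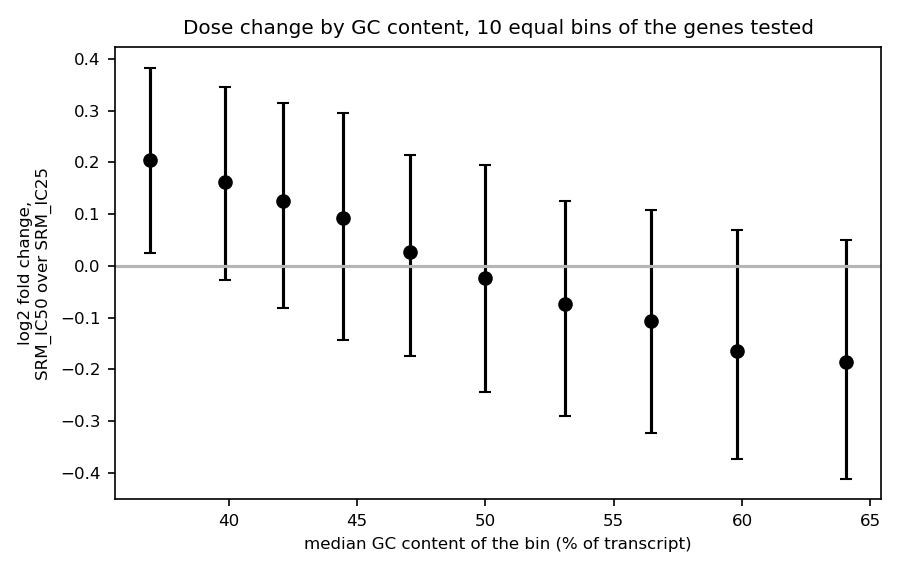
Points give the median log2 fold change (SRM_IC50 over SRM_IC25) in each of 10 equal bins of the tested genes ordered by GC content, plotted at the median GC content of the bin, and bars span the quartiles. The median is 0.2 in the bin with the least GC and -0.19 in the bin with the most.

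Regulators of the pluripotent state were higher at SRM_IC50. Of the 20 members tested of this list, of 22 in the files, 15 were higher and 2 lower, beside 14.9% and 12.7% of all genes, and the median log2 change was 0.90, beside 0.01 over all genes. NANOG had 18.7, 15.9 and 20 CPM at SRM_IC50, against 4.70, 4.40 and 3.54 CPM at SRM_IC25, a log2 change of 2.10 (SE 0.16, adjusted p = 1.47e-05). POU5F1 (chr6:31164337-31180731) had 556, 515 and 761 CPM at SRM_IC50, against 158, 216 and 203 CPM at SRM_IC25 (log2 1.67, SE 0.18, adjusted p = 0.000143). The groups were apart in both genes, with the lowest SRM_IC50 library well above the highest SRM_IC25 library. POU5F1 has near-identical pseudogene copies and exons that overlap a gene on the other strand, so its counts are less certain. SOX2 (chr3:181711924-181714436) had 233, 240 and 275 CPM at SRM_IC50, against 99.6, 89.6 and 109 CPM at SRM_IC25 (log2 1.33, SE 0.099, adjusted p = 1.12e-05). The summed level of the list was 1003 to 1075 FPKM at SRM_IC50, against 534.4 to 553.3 FPKM at SRM_IC25 and 654.3 to 700.5 FPKM in UNT. In bulk RNA, more cells of a type and more RNA per cell cannot be told apart, here and below.

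The largest rise of the list was in PRDM14 (chr8:70051651-70071693), which represses genes of differentiation. It had 25.9, 21.2 and 20.3 CPM at SRM_IC50, against 2.99, 2.47 and 1.83 CPM at SRM_IC25 (log2 3.22, SE 0.20, adjusted p = 4.94e-06). UTF1, a chromatin factor of embryonic stem cells, had 3.96, 3.25 and 4.73 CPM at SRM_IC50, against 1.05, 0.373 and 0.531 CPM at SRM_IC25 (log2 2.81). The de novo DNA methyltransferase DNMT3B rose by 1.39, DPPA4 by 1.23, ZSCAN10 by 1.22 and the RNA-binding protein LIN28A by 0.77. The members that fell were KLF4 (-1.40) and TFCP2L1 (-1.41), transcription factors tied to the naive form of pluripotency. KLF4 had 3.65, 4.64 and 4.64 CPM at SRM_IC50, against 10.3, 11.4 and 11.9 CPM at SRM_IC25. OTX2 (log2 0.01) and ZFP42 (0.16) were not called.

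**Figure D2:**
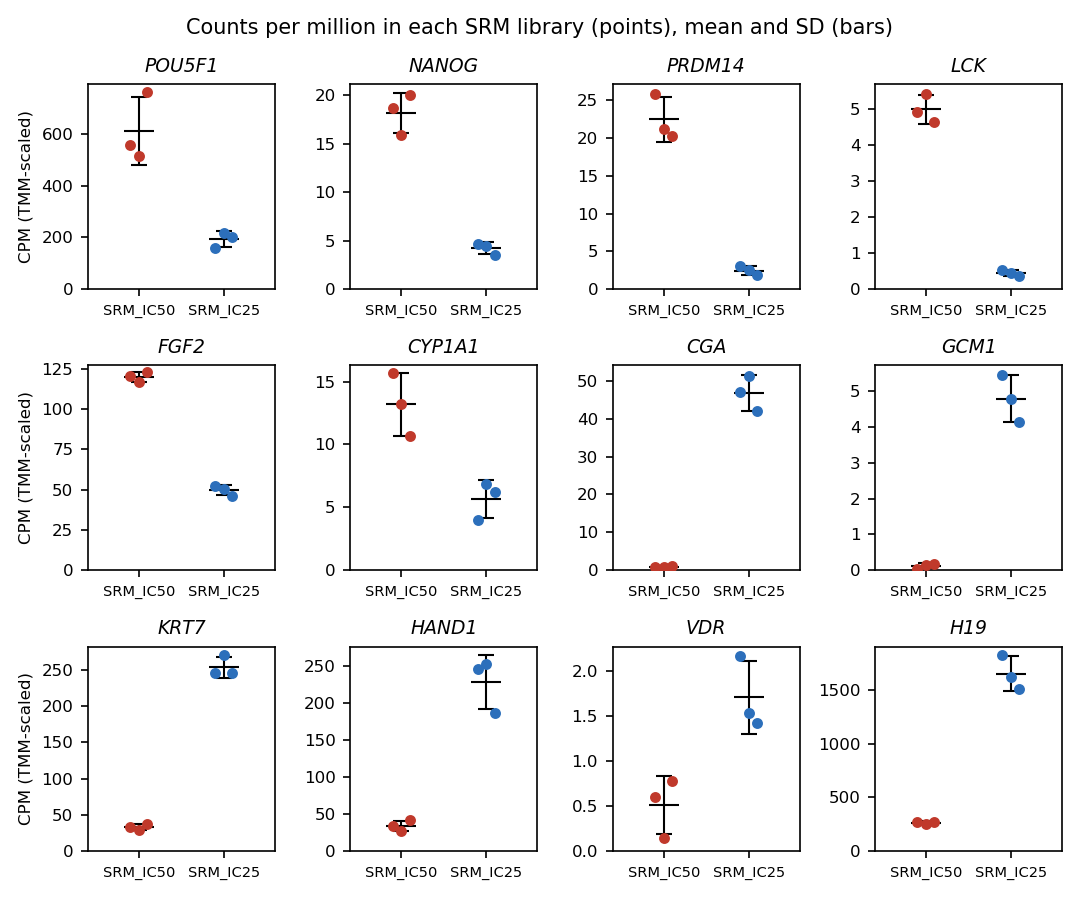
Points are the TMM-scaled CPM of 12 genes in each SRM library, SRM_IC50 left and SRM_IC25 right, with the mean and SD of 3 libraries as bars; each panel has its own linear axis from 0. In the 6 panels from POU5F1 to CYP1A1 every SRM_IC50 library lies above every SRM_IC25 library, and in the 6 panels from CGA to H19 every SRM_IC50 library lies below.

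FGF and Nodal genes that serve the same state also moved. Among 21 tested genes of FGF ligands, receptors and ERK feedback, 11 were higher and 1, FOS, lower, with a median log2 change of 0.59. The shares of all genes were 14.9% and 12.7%. FGF2, the ligand used to maintain these cells, had 121, 117 and 123 CPM at SRM_IC50, against 52.3, 50.6 and 46.1 CPM at SRM_IC25 (log2 1.28, SE 0.091, adjusted p = 9.18e-06). Its receptor FGFR4 rose by 1.18. The ERK-induced transcription factors ETV4 and ETV5 rose by 1.38 and 0.65, and the feedback inhibitors SPRY4, DUSP6 and SPRED1 by 0.81, 0.75 and 0.60. FGFR1 (log2 0.37, adjusted p = 0.0648) and FGF8 (-0.24) were not called. FOS was not called without SRM_IC25 replicates 2 or 3 or without SRM_IC50 replicates 1 or 2.

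Of 14 tested members of the Nodal list, of 20 in the files, 5 were higher and 3 lower. Over all genes the shares were 14.9% and 12.7%. NODAL itself, among the 5, stayed under 1 CPM in every SRM_IC25 library and passed the filter through SRM_IC50 alone, so it had to differ. TDGF1, the co-receptor of Nodal (chr3:46574534-46582463), had 97.4, 92.6 and 111 CPM at SRM_IC50, against 10.4, 13.3 and 11.1 CPM at SRM_IC25 (log2 3.09, SE 0.15, adjusted p = 1.48e-06). The ligand NODAL had 3.18, 2.10 and 3.01 CPM at SRM_IC50, against 0.672, 0.706 and 0.767 CPM at SRM_IC25 (log2 1.94). FOXH1, which carries the signal to DNA, rose by 1.73, and the activin binding protein FST by 0.71. Exons of TDGF1, NODAL and FOXH1 overlap a gene on the opposite strand. SMAD7, an inhibitor of the pathway, fell by 0.39. The receptors ACVR1B (log2 -0.10) and ACVR2B (0.27) were not called. The 3 lower members numbered 0 without SRM_IC25 replicate 2 or without SRM_IC50 replicate 2, and 1 without SRM_IC50 replicate 1.

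Several genes among the 12 largest protein-coding rises belong to no pluripotency list. LCK, a tyrosine kinase known from T cells (chr1:32251239-32286165), had 4.93, 5.44 and 4.64 CPM at SRM_IC50, against 0.523, 0.451 and 0.354 CPM at SRM_IC25 (log2 3.49). The T cell and leukocyte marker PTPRC stayed at or under 0.00992 FPKM in all 6 libraries. LRAT, which esterifies retinol, had 23.1, 17.9 and 22.2 CPM at SRM_IC50, against 1.49, 2.08 and 1.83 CPM at SRM_IC25 (log2 3.49, SE 0.18, adjusted p = 2.64e-06). HES3, a repressor of the HES family, rose by 3.21, SNCB, beta-synuclein, by 3.04, the galectin gene LGALS12 by 2.94 and the membrane protein gene TM4SF18 by 2.89. THBS2, a matrix thrombospondin, and GNA14, a G protein subunit, both rose by 2.76, and the chemokine CXCL5 by 2.72. LCK, HES3, SNCB, LGALS12, THBS2 and LINC00698 stayed under 1 CPM in every SRM_IC25 library. They passed the filter through SRM_IC50 alone, so they had to differ. Among long non-coding genes LINC00698 (3.41), LINC00678 (2.68) and HPAT5 (2.26) rose most. LINC00678 had 28.2, 27.5 and 29.5 CPM at SRM_IC50, against 4.11, 4.83 and 4.13 CPM at SRM_IC25.

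The largest falls were in genes of syncytiotrophoblast. All 12 of the largest protein-coding falls were in genes that stayed under 1 CPM in every SRM_IC50 library. They passed the filter through SRM_IC25 alone, so they had to differ. CGA had 0.771, 0.699 and 0.946 CPM at SRM_IC50, against 47.0, 51.4 and 42.0 CPM at SRM_IC25 (log2 -5.89). In UNT it had 34.9, 39.6 and 56.9 CPM, within which the SRM_IC25 values lie. CYP19A1, the aromatase that makes oestrogens (chr15:51208057-51338610), had 0.704, 0.699 and 0.688 CPM at SRM_IC50, against 26.1, 24.3 and 18.8 CPM at SRM_IC25 (log2 -5.03). GCM1 (chr6:53126964-53148829), the transcription factor that sets off fusion, had 0.0335, 0.150 and 0.172 CPM at SRM_IC50, against 5.45, 4.79 and 4.13 CPM at SRM_IC25 (log2 -5.52). Those SRM_IC50 values are at or below the floor of 3 counts, as are those of the 2 syncytin genes. ERVW-1, which encodes syncytin-1, had 0.067, 0 and 0.172 CPM at SRM_IC50, against 7.62, 6 and 4.54 CPM at SRM_IC25. ERVFRD-1, which encodes syncytin-2, had 0.067, 0.0499 and 0.086 CPM at SRM_IC50, against 5.38, 5.12 and 3.78 CPM at SRM_IC25.

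The related envelope genes ERVV-1 and ERVV-2 had 1 and 2 counts in the 3 SRM_IC50 libraries together, against 199 and 245 counts at SRM_IC25. Scaled by library size, that made ERVV-1 150-fold lower (exact interval 26.7 to 5970) and ERVV-2 92.6-fold lower (25.4 to 769), intervals that cover counting error only. These 2 genes are near-identical copies, so reads may be shared between them. HSD3B1, which makes progesterone, had 1.54, 1.95 and 3.10 CPM at SRM_IC50, against 23.4, 23.0 and 22.3 CPM at SRM_IC25 (log2 -3.48). The placental growth factor PGF fell by 2.73 and the transcription factor OVOL1 by 2.54. The placental galectin LGALS16 had 0.067, 0.0499 and 0.258 CPM at SRM_IC50, against 4.55, 4.71 and 3.54 CPM at SRM_IC25. S100P, a calcium-binding protein of trophoblast, had 0.101, 0 and 0.172 CPM at SRM_IC50, against 2.31, 3.20 and 1.59 CPM at SRM_IC25. PRR9, the receptor gene MRGPRX1 and the adaptor gene FYB1 were also among the 12 largest falls, and in all 5 genes at most 5 counts were seen in any SRM_IC50 library, so no exact fold is given. Going the other way in the list were the proteoglycan SDC1 (0.36), the protease inhibitor TFPI2 (0.90) and PAPPA (1.15), a protease that cuts insulin-like growth factor binding proteins, all of which rose. Of the 33 genes of the syncytiotrophoblast list, 16 passed the filter, and 9 of those stayed under 1 CPM in every SRM_IC50 library. These 9 passed only through SRM_IC25, so neither a count nor a median of the list is given. The other 17, among them the PSG genes and CSH1, stayed below the filter in both groups.

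Most regulators shared by amnion and early trophoblast were lower. Of 22 tested members, of 23 in the files, 20 were lower, beside 12.7% of all genes, with a median log2 change of -1.13. The others, TFAP2B (-0.20) and TEAD4 (-0.02), were not called. GABRP, a GABA receptor subunit used as an amnion marker, had 112, 113 and 121 CPM at SRM_IC50, against 713, 716 and 574 CPM at SRM_IC25 (log2 -2.53, SE 0.12, adjusted p = 1.48e-06). The transcription factor GATA2 had 8.01, 6.84 and 9.46 CPM at SRM_IC50, against 60.6, 56.9 and 51.2 CPM at SRM_IC25 (log2 -2.81). GATA3, its relative in early trophoblast, had 24.0, 23.3 and 32.9 CPM at SRM_IC50, against 113, 102 and 99.4 CPM at SRM_IC25 (log2 -1.98). IGFBP3 fell by 2.73, the immune checkpoint ligand VTCN1 by 2.52, TBX3 by 2.11 and ISL1 by 1.13. Smaller falls were seen in TFAP2A (-0.69) and TFAP2C (-0.38). The summed level of the list was 202.9 to 211.2 FPKM at SRM_IC50, against 558.0 to 654.9 FPKM at SRM_IC25 and 570.8 to 632.7 FPKM in UNT. These falls stand beside the rise of the pluripotency list in the same libraries, and the part of either in the other was not tested. CDX2, another member, stayed under 1 CPM in all SRM_IC50 libraries and passed the filter through SRM_IC25 alone.

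Genes of simple epithelia were lower as well. Of 29 members, 25 were lower and 2 higher, beside 12.7% and 14.9% of all genes, with a median log2 change of -1.04. KRT7, a keratin of simple epithelium (chr12:52232520-52252186), had 32.9, 29.2 and 36.7 CPM at SRM_IC50, against 245, 270 and 245 CPM at SRM_IC25 (log2 -2.95, SE 0.15, adjusted p = 2.44e-06). KRT19 fell by 1.69, and KRT8 and KRT18, which pair to form the first keratin filaments of the embryo and have many pseudogene copies, by 1.35 and 1.33. The transcription factors GRHL2 fell by 1.71 and GRHL1 fell by 1.62, the desmosome gene PKP3 by 2.05, the tight junction gene CLDN4 by 1.44 and E-cadherin, CDH1, by 0.90. CDH1 had 208, 195 and 178 CPM at SRM_IC50, against 403, 364 and 314 CPM at SRM_IC25. EPCAM (log2 -0.33) and CLDN6 (-0.29) were not called. The higher members, MAL2 (0.31) and OCLN (0.52), numbered 0 or 1 when any library other than UNT replicate 1 was left out, and 0 with the GC correction. Among 18 genes linked to the transition from epithelium to mesenchyme, 3 were higher and 3 lower, beside 14.9% and 12.7% of all genes. Fibronectin (FN1) fell by 1.37. The higher ones numbered 1 without SRM_IC25 replicate 2 or without SRM_IC50 replicate 2, and 5 with the GC correction.

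**Figure D3:**
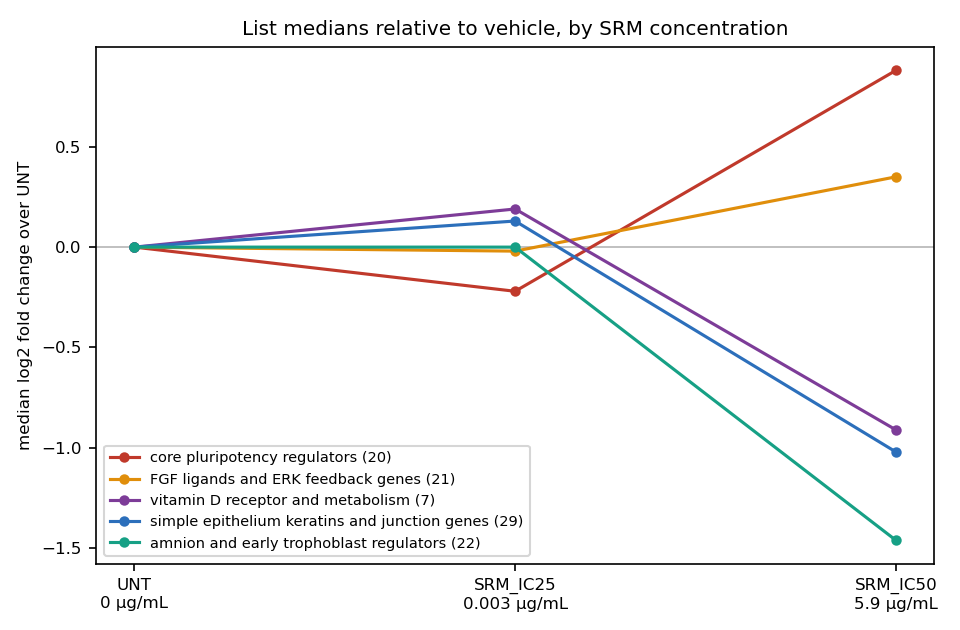
Lines give the median log2 fold change over UNT of the tested members of 5 gene lists (number of members in brackets) at 0, 0.003 and 5.9 µg/mL of SRM; UNT is 0 by definition and the points share the UNT libraries. At SRM_IC25 the medians lie between -0.22 and 0.19, and at SRM_IC50 between -1.46 and 0.88.

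Lateral plate and cardiac mesoderm genes were mostly lower. Of 14 tested members, of 19 in the files, 8 were lower, 5 not called and 1 higher, with a median log2 change of -0.68. Over all genes 12.7% were lower and 14.9% higher. HAND1, a transcription factor of extraembryonic and lateral mesoderm (chr5:154474972-154478264), had 33.5, 26.7 and 41.3 CPM at SRM_IC50, against 245, 252 and 186 CPM at SRM_IC25 (log2 -2.76, SE 0.18, adjusted p = 6.29e-06). GATA6 fell by 1.92, the sarcomere genes TNNT2 and MYH6 by 1.65 and 1.59 and BMP4 by 0.75. KDR, a receptor of VEGF, rose by 2.03 with 54.4, 47.9 and 35.5 CPM at SRM_IC50, against 11.1, 10.6 and 12.4 CPM at SRM_IC25. TBXT and MESP1, which mark nascent mesoderm, were at or below 0.26 FPKM in both groups. TEK, another endothelial receptor, rose by 0.91, while the endothelial cadherin CDH5 (-0.95) and RUNX1 (-1.73) fell and PECAM1 stayed below the filter.

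A pair of imprinted neighbours on chromosome 11 fell together. H19 (chr11:1995176-2001470), a long non-coding RNA, had 272, 248 and 272 CPM at SRM_IC50, against 1830, 1620 and 1510 CPM at SRM_IC25 (log2 -2.65, SE 0.11, adjusted p = 1.09e-06). IGF2, an insulin-like growth factor, had 49.7, 50.6 and 41.5 CPM at SRM_IC50, against 295, 219 and 184 CPM at SRM_IC25 (log2 -2.30). CDKN1C, a brake on the cell cycle in the same region, fell by 1.64. Exons of both H19 and IGF2 overlap a gene on the opposite strand. Of 20 tested imprinted genes 7 were lower and 1, GRB10, higher, beside 12.7% and 14.9% of all genes. GRB10 was not called without SRM_IC25 replicates 2 or 3. PEG3 (-0.13), PEG10 (0.14) and DLK1 (0.08) were not called.

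Matrix genes were called in both directions. Of 28 tested collagens and small proteoglycans, 8 were lower and 4 higher, beside 12.7% and 14.9% of all genes. The higher count was thus near the share of all genes. LUM and DCN, proteoglycans of loose connective tissue, fell by 2.30 and 2.01, COL6A3 by 1.96, COL5A1 by 1.38 and COL3A1 by 1.35. LUM had 21.1, 20 and 25.1 CPM at SRM_IC50, against 123, 117 and 85.3 CPM at SRM_IC25. COL8A1 rose by 1.26. The 4 higher members numbered 1 without SRM_IC25 replicate 2 and 2 without SRM_IC25 replicate 3 or without SRM_IC50 replicates 1 or 2. Integrins and laminins had 11 of 29 lower, led by ITGB6 (-1.84) and ITGB4 (-1.73), and 4 higher, again near the share of all genes. Higher members included LAMC3 (1.65) and ITGA6 (0.90). For integrins and laminins the lower count was 7 without SRM_IC25 replicate 1 or SRM_IC50 replicate 2. The higher count was 7 without SRM_IC50 replicate 3.

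The osteoblast list gave both directions. Of 20 tested genes, of 24 in the files, 5 were higher and 7 lower, with a median log2 change of -0.02. The shares of all genes were 14.9% and 12.7%. RUNX2, the lineage's first transcription factor, had 3.69, 3.45 and 3.87 CPM at SRM_IC50, against 7.77, 5.32 and 5.37 CPM at SRM_IC25 (log2 -0.73, SE 0.18, adjusted p = 0.012, and 0.0529 without SRM_IC50 replicate 2). SP7, the factor that acts after RUNX2, had 1.54, 1.75 and 1.20 CPM at SRM_IC50, against 1.42, 0.805 and 0.826 CPM at SRM_IC25 (log2 0.68, adjusted p = 0.0745) and was not called. ALPL, the alkaline phosphatase that both bone and pluripotent cells make (chr1:21509372-21578412), had 165, 161 and 151 CPM at SRM_IC50, against 82.9, 87.6 and 92.0 CPM at SRM_IC25 (log2 0.86, SE 0.087, adjusted p = 7.62e-05). SPP1, osteopontin, rose by 0.74 and TNFRSF11B, the decoy receptor osteoprotegerin, by 1.42. The parathyroid hormone receptor PTH1R fell by 1.91, and the homeobox genes DLX5, DLX3 and DLX6 by 1.30, 1.27 and 1.1. COL1A1, the main collagen of bone, had 415, 348 and 276 CPM at SRM_IC50, against 342, 263 and 233 CPM at SRM_IC25 (log2 0.31, adjusted p = 0.214), and the groups overlapped.

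Of the 7 tested genes of vitamin D handling, of 14 in the files, 5 were lower, beside 12.7% of all genes, and 2 not called. The receptor gene VDR, among the 5, had 0.603, 0.150 and 0.774 CPM at SRM_IC50, against 2.17, 1.53 and 1.42 CPM at SRM_IC25 (log2 -1.75). It passed the filter through SRM_IC25 alone, so it had to differ. CYP24A1, the enzyme that breaks down vitamin D and is induced by it, had 2.01, 1.35 and 1.72 CPM at SRM_IC50, against 3.43, 3.43 and 2.83 CPM at SRM_IC25 (log2 -0.92). The calcium channel TRPV6 fell by 2.27 and LRP2, an uptake receptor, by 1.27. CYP2R1 (0.12) and CYP27A1 (0.22), which activate the vitamin, were not called. By limma on log2(FPKM + 1), 2 of these genes were lower.

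Neuroectoderm genes moved both ways. Of 22 tested members 9 were higher and 7 lower, beside 14.9% and 12.7% of all genes. Lower members known for the eye field and forebrain included RAX (-2.04), SIX6 (-1.95), LHX2 (-1.12), SIX3 (-0.71) and PAX6 (-0.69). PAX6 had 64.2, 66.0 and 58.4 CPM at SRM_IC50, against 133, 77.5 and 96.0 CPM at SRM_IC25 and 154, 138 and 161 CPM in UNT, so that the SRM_IC25 libraries lay below UNT. Its log2 change was -0.69 (SE 0.17, adjusted p = 0.0123). The higher ones included FEZF1 (1.29), ZIC5 (1.22), ZIC2 (1.13), HESX1 (1.09) and the intermediate filament gene NES (0.49), beside SOX2, which pluripotent cells also make. Of 20 tested genes of early neurons 6 were higher and 1 lower, beside the same shares of all genes. SNCB, among the 6, passed the filter through SRM_IC50 alone. UNC13A, which primes synaptic vesicles, had 15.6, 12 and 8.94 CPM at SRM_IC50, against 2.91, 2.65 and 2.72 CPM at SRM_IC25 (log2 2.17), and GAP43, a growth cone protein, rose by 0.99. The neuronal tubulin TUBB3 (0.53) and STMN2 (-0.52) were not called. The lower count was 2 without SRM_IC50 replicate 3. Neural crest genes had 5 of 18 higher and 4 lower, beside 14.9% and 12.7% of all genes. Their higher count, however, was 0 without SRM_IC25 replicate 2, 2 without SRM_IC50 replicate 2 and 3 without SRM_IC25 replicate 1. SOX10, the crest marker, was 14.3 to 19.3 FPKM at SRM_IC50 and 14.6 to 19.6 FPKM at SRM_IC25.

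**Figure D4:**
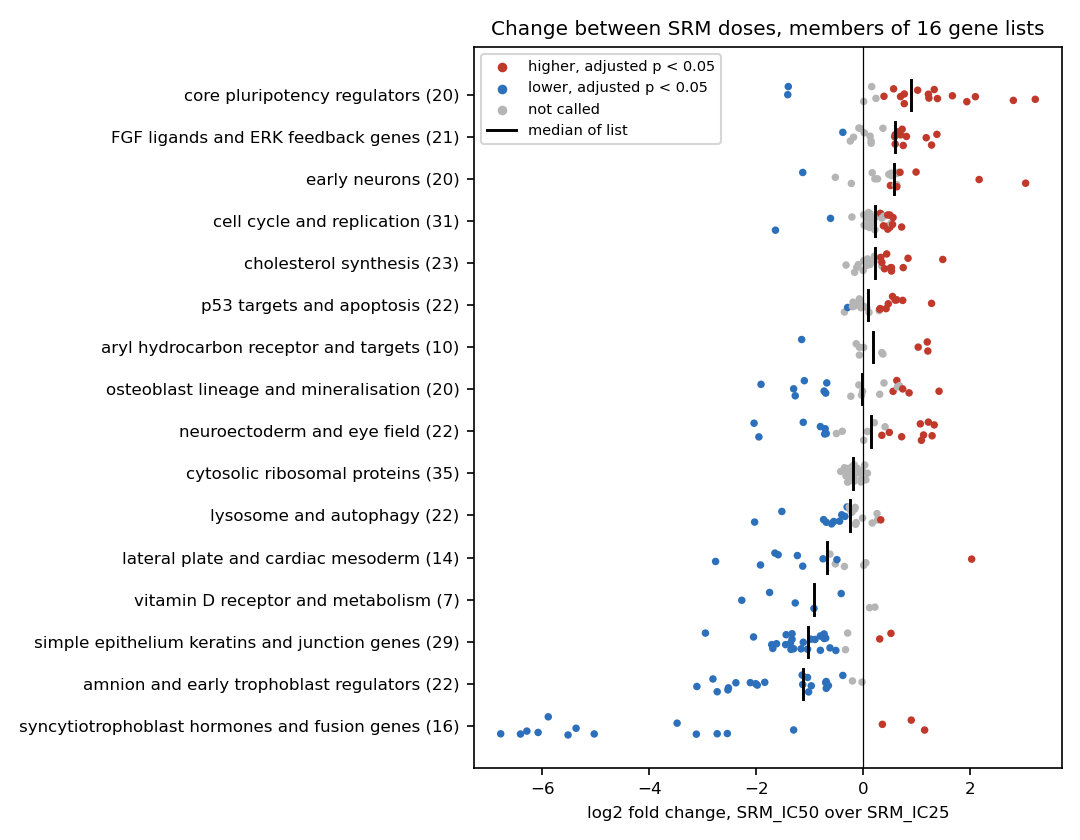
Each point is a tested gene of the list named at left (number tested in brackets), placed by its log2 fold change of SRM_IC50 over SRM_IC25, red or blue where the adjusted p is under 0.05 and grey where it is not; black bars are list medians, left out for the syncytiotrophoblast list, whose members mostly passed the filter through SRM_IC25. The amnion and epithelium lists lie mostly below 0, the pluripotency list mostly above, and the ribosomal protein list close to 0.

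Targets of the aryl hydrocarbon receptor, a sensor of combustion products, changed in part. Of 10 tested members, of 13 in the files, 3 were higher and 1 lower, beside 14.9% and 12.7% of all genes. CYP1A1, the enzyme most used as a readout of the receptor (chr15:74719542-74725610), had 15.7, 13.2 and 10.7 CPM at SRM_IC50, against 3.96, 6.83 and 6.20 CPM at SRM_IC25 (log2 1.20, SE 0.20, adjusted p = 0.00169). In UNT it had 5.95, 7.15 and 6.14 CPM, a range that overlaps SRM_IC25. CYP1B1 had 54.0, 45.8 and 42.1 CPM at SRM_IC50, against 23.2, 23.4 and 23.3 CPM at SRM_IC25 (log2 1.03, SE 0.099, adjusted p = 5.54e-05). In UNT CYP1B1 had 30.9, 31.2 and 30.7 CPM, above every SRM_IC25 library and below every SRM_IC50 library. CYP2S1 rose by 1.21 and LPCAT2 fell by 1.15. The receptor gene AHR (-0.13), its repressor AHRR (0.01) and TIPARP (0.37, adjusted p = 0.115) were not called. Of 15 tested P450 and xenobiotic genes 6 were higher and 3 lower, beside 14.9% and 12.7% of all genes. The efflux pump ABCG2 fell by 1.40. The higher count of this list was 3 without SRM_IC25 replicates 2 or 3 or without SRM_IC50 replicate 1. Its lower count was 1 without SRM_IC25 replicate 2.

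Most genes of oxidant and metal responses were not called. Among 23 NRF2 targets 5 were higher, 1 lower and 17 not called, beside 14.9% higher and 12.7% lower over all genes. Glutathione reductase, GSR, rose by 0.74, the cystine carrier SLC7A11 by 0.64 and GCLC, which starts glutathione synthesis, by 0.40. The log2 differences from UNT at SRM_IC50 and SRM_IC25 were 0.45 and -0.29 for GSR and 0.37 and -0.26 for SLC7A11. For GCLC they were 0.17 and -0.23. HMOX1 had 25.5, 23.6 and 26.2 CPM at SRM_IC50, against 25.1, 32.6 and 29.5 CPM at SRM_IC25 (log2 -0.22, adjusted p = 0.226). NQO1 had 95.4, 95.8 and 129 CPM at SRM_IC50, against 73.0, 92.4 and 85.9 CPM at SRM_IC25 (log2 0.35, adjusted p = 0.113). Neither was called. The lower member, GCLM, was not called without SRM_IC25 replicate 2 or SRM_IC50 replicate 2, and without SRM_IC25 replicate 3 the lower count was 2. Of 10 metallothionein and zinc transport genes 3 were higher, beside 14.9% of all genes. The zinc exporter SLC30A1 rose by 0.53, while the metallothionein MT2A (-0.20) was not called. The log2 difference of SLC30A1 from UNT was 0.13 at SRM_IC50 and -0.40 at SRM_IC25.

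Among 22 p53 targets 9 were higher and 1, XPC, lower, beside 14.9% and 12.7% of all genes. PMAIP1, which encodes the pro-death protein NOXA, had 37.3, 36.2 and 45.0 CPM at SRM_IC50, against 15.9, 17.2 and 15.3 CPM at SRM_IC25 (log2 1.28, SE 0.13, adjusted p = 6.59e-05). RRM2B, which supplies nucleotides for repair, rose by 0.74, AEN by 0.63 and MDM2, the ligase that degrades p53, by 0.60. XPC was not called without SRM_IC25 replicates 1 or 2, UNT replicate 2 or SRM_IC50 replicates 1 or 2. In the list of the integrated stress and unfolded protein response 4 of 21 genes were higher, 1 lower and 16 not called, beside 14.9% higher and 12.7% lower over all genes. PSAT1 and ASNS, amino acid synthesis enzymes, rose by 0.89 and 0.61 and HERPUD1, a protein of the endoplasmic reticulum, fell by 0.53. The higher count was 2 without SRM_IC25 replicates 1 or 2 or SRM_IC50 replicate 1, and the lower count 2 without SRM_IC25 replicate 1 or SRM_IC50 replicate 3. Heat shock genes had 4 of 16 members each way, beside 14.9% higher and 12.7% lower over all genes. HSPD1, a mitochondrial chaperone, rose by 0.65 and BAG3 fell by 0.61. The log2 difference of HSPD1 from UNT was 0.20 at SRM_IC50 and -0.46 at SRM_IC25, and that of BAG3 was -0.50 and 0.11. The lower count was 1 or 2 without SRM_IC25 replicates 2 or 3, UNT replicate 2 or SRM_IC50 replicates 1 or 2.

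Some cell cycle and sterol genes rose by small amounts, and most were not called. Of 31 cell cycle and replication genes 11 were higher and 2 lower, with a median log2 change of 0.22. Over all genes 14.9% were higher and 12.7% lower. CCND1, cyclin D1, had 443, 405 and 336 CPM at SRM_IC50, against 260, 237 and 222 CPM at SRM_IC25 (log2 0.72, SE 0.12, adjusted p = 0.00151), and the replication genes CDC6 and RRM2 rose by 0.55 and 0.50. The lower ones were CDKN1C and CCND3 (-0.61). In cholesterol synthesis and uptake 10 of 23 genes were higher, beside 14.9% of all genes, with a median log2 change of 0.22. INSIG1, which holds back sterol synthesis, had 60.1, 63.1 and 72.3 CPM at SRM_IC50, against 34.3, 37.7 and 37.1 CPM at SRM_IC25 (log2 0.84, SE 0.094, adjusted p = 0.000144), and the synthesis enzyme HMGCS1 rose by 0.75. A single member was called lower without SRM_IC25 replicate 1, UNT replicates 1 or 3 or SRM_IC50 replicate 3. Of 26 glycolysis and hypoxia genes 7 were higher, led by ADM (1.1) and EGLN3 (0.83), and 3 lower, led by NDRG1 (-1.77). The shares of all genes were 14.9% and 12.7%, so the lower count was near its share.

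Lists of large, evenly expressed complexes showed little. None of the 35 cytosolic ribosomal protein genes was called by edgeR in either direction, none had an unadjusted p under 0.05, and DESeq2 and limma called none. Their log2 changes lay between -0.42 and 0.08 with a median of -0.19. Without SRM_IC50 replicate 3, 8 of them were lower. Among 26 nuclear genes of oxidative phosphorylation 1, cytochrome c (CYCS, log2 0.65), was higher, beside 14.9% of all genes. Without SRM_IC50 replicate 3 the count was 2. Lysosome and autophagy genes had 10 of 22 lower, beside 12.7% of all genes. The falls were led by TFEB (-2.03), a transcription factor of lysosome genes, and the protease genes CTSL (-1.52), CTSZ (-0.74) and CTSB (-0.69). The lower count was 5 without SRM_IC25 replicate 2.

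Ligands and inhibitors of other pathways went both ways within a family. Of 28 WNT genes 8 were higher and 10 lower, beside 14.9% and 12.7% of all genes. DKK2 and RSPO2, among the 8, stayed under 1 CPM at SRM_IC25 and passed the filter through SRM_IC50 alone. WNT11, WNT6 and WNT5A fell by 2.64, 2.01 and 1.05, while WNT8A and WNT10B rose by 1.59 and 1.19 and SP5, a direct target of the canonical pathway, by 1.35. WNT11 had 2.41, 2.30 and 3.35 CPM at SRM_IC50, against 15.6, 18.4 and 14.3 CPM at SRM_IC25. The higher count was 5 without SRM_IC25 replicates 1 or 2, UNT replicate 2 or SRM_IC50 replicate 1, and 4 without SRM_IC50 replicate 2. Of 24 BMP genes 3 were higher, near the share of all genes, and 7 lower. Among the 7, 1 passed the filter through SRM_IC25 alone. BMP4 had 54.5, 55.6 and 64.8 CPM at SRM_IC50, against 101, 99.4 and 93.2 CPM at SRM_IC25, and the BMP-induced inhibitors BAMBI and SMAD6 fell by 1.05 and 0.68. The BMP antagonist GREM1 rose by 1.27. NOTCH genes had 3 of 20 higher and 3 lower, beside 14.9% and 12.7% of all genes, and HES3, among the higher ones, passed the filter through SRM_IC50 alone.

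Retinoid genes had 5 of 22 higher and 9 lower, beside 14.9% and 12.7% of all genes. CYP26B1, among the 9, passed the filter through SRM_IC25 alone. Besides LRAT, CYP26A1, which breaks down retinoic acid and is induced by it, had 35.4, 35.9 and 43.3 CPM at SRM_IC50, against 11.9, 12.5 and 11.5 CPM at SRM_IC25 (log2 1.66, SE 0.11, adjusted p = 5.42e-06). RARB, a receptor induced by retinoic acid, had 7.07, 8.44 and 6.02 CPM at SRM_IC50, against 21.4, 19.3 and 18.7 CPM at SRM_IC25 (log2 -1.45, SE 0.13, adjusted p = 4.41e-05). These retinoid-induced genes moved in opposite directions. MEIS1 fell by 2.03 and ALDH1A1, which makes retinoic acid, by 1.16. The higher count was 3 without SRM_IC25 replicate 2 or SRM_IC50 replicates 1 or 2.

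The change between the SRM doses was set against the change between the FPM doses in a fit of all 15 libraries, a comparison chosen after the data were seen. The concentrations of the 2 particles differ, and genes annotated as antisense took 1.03% to 1.5% of counts at FPM_IC50 and 0.942% to 1.27% at FPM_IC25, against 0.288% to 0.319% at SRM_IC50 and 0.298% to 0.303% at SRM_IC25. The difference of the dose changes passed the threshold in 2755 genes (17.9%), with the SRM change above the FPM change in 1265 and below it in 1490. Between the FPM doses themselves, 0 genes were called higher and 2 lower in this fit. The 449 higher and the 636 lower genes both had a median FPM dose change of 0.05. NANOG changed by 2.10 on the log2 scale between SRM doses and by 0.21 between FPM doses, CGA by -5.89 and 0.29, and KRT7 by -2.95 and 0.16. CYP1A1 changed by 1.20 between SRM doses and by -0.14 between FPM doses. The eye field gene RAX changed by -2.04 between SRM doses, and its value of 1.45 between FPM doses was not called (adjusted p = 0.371).

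**Figure D5:**
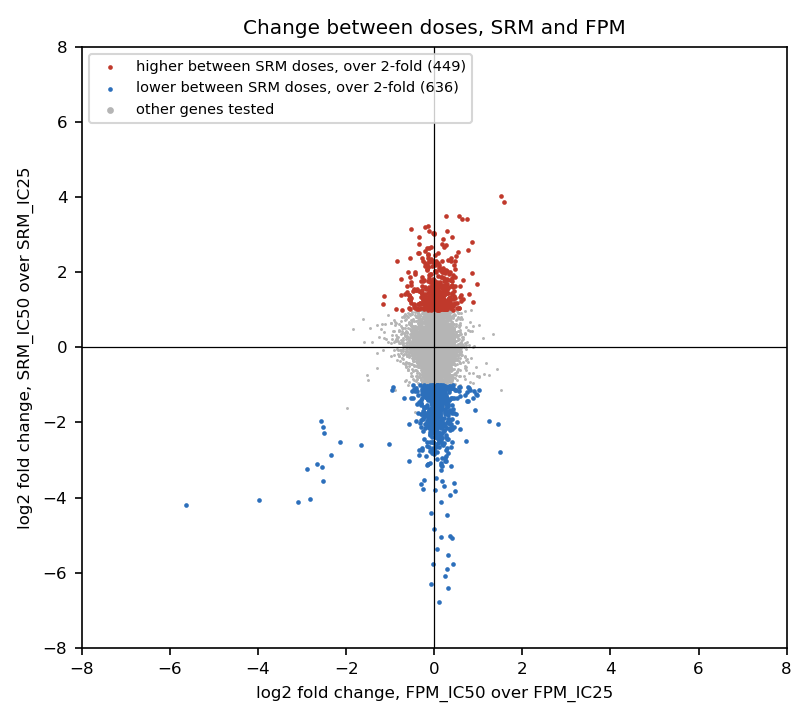
Each point is 1 of the 15396 tested genes, placed by its log2 fold change between the FPM doses (x axis) and between the SRM doses (y axis); red and blue mark the 449 genes higher and the 636 genes lower by more than 2-fold between SRM doses at an adjusted p under 0.05. The coloured points spread along the y axis and lie mostly near 0 on the x axis, apart from 13 blue points below -2 on the x axis.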

How the data were processed

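PolyA-selected, directional RNA-seq libraries were compared in 3 groups of 3. Per the submitters' processing notes, reads were aligned to GRCh38 with HISAT2 2.2.1 and counted with featureCounts of Subread 2.0.15; FastQC 0.11.7, SAMtools 1.10 and DESeq2 are also named. For the annotation release, the strand setting and the treatment of reads with several matches nothing is given in the sources used here. The authors deposited whole-number counts per gene. The authors also deposited FPKM, which equal the count scaled by gene length and column total.

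The counts were fitted with edgeR 4.0.16 (R 4.3.3; robust quasi-likelihood, TMM) over 9 libraries, SRM_IC50, SRM_IC25 and UNT, for 15396 genes with at least 1 CPM in 3 of the 6 SRM libraries, with Benjamini-Hochberg adjustment at 0.05. CPM are TMM-scaled. The fit was tested on simulated data. Totals ran from 12.0 to 51.2 M counts. Positions and types came from GENCODE 29. Text names the 12 largest protein-coding and 3 largest long non-coding changes each way with groups apart and a mean of 1 CPM or more, up to 6 called members of each of 44 lists, and set markers; other members were picked as examples after their values were seen. The members and lists were chosen with earlier results of these data known, and the comparison with FPM and the structural RNA classes after the data were seen. Alternatives used DESeq2 1.42.0, limma 3.58.1 on log2(FPKM + 1) and log2(FPKM + 0.1), other filters and scalings, a GC correction, a replicate block and each library left out.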

Additional observations from a re-analysis of the deposited data

Results flagged for a closer look

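The change between SRM doses differed from the change between FPM doses in 2755 genes, by the test of the difference itself in edgeR's fit of all 15 libraries. Each value below is the log2 SRM dose change minus the log2 FPM dose change. Among genes set out as markers, the difference was 1.48 for POU5F1, 1.88 for NANOG and 1.14 for SOX2, all regulators of pluripotency. It was 1.31 for CYP1A1 and 0.82 for CYP1B1, which metabolise combustion products, and 0.69 for the alkaline phosphatase ALPL. The SRM change lay below the FPM change by -6.20 for CGA, -3.13 for KRT7, -2.67 for HAND1 and -1.60 for PAX6. The concentrations of the 2 particles differ, and the FPM libraries hold a larger share of antisense counts; the part of either in these differences was not tested.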

How the results depend on the processing

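Of the 241 genes named by the rule, 0 changed direction under the settings run, and of the 237 of them that were called, 192 stayed called under every setting that gave a value and 196 in every fit with 1 library left out. With libraries left out, 1392 to 2329 genes were higher and 1347 to 2325 lower, 276 to 379 list members were called, and 2068 to 2839 genes differed between the SRM and FPM changes. The lowest count of higher genes came without SRM_IC25 replicate 2 and the next, 1497, without SRM_IC50 replicate 2. With the opposite-strand neighbours within 5 kb left out, a construction that tests fewer genes, 616 genes were higher, 560 lower, 129 list members called, and 796 genes differed between particles. With the replicate number as a block, 3688 genes were higher and 3395 lower, and with the block and the GC correction 2992 were lower. Same-numbered SRM libraries had correlations of deviations of 0.538, -0.212 and 0.459. With UNT, replicate 1 had 0.593 at SRM_IC50 and 0.479 at SRM_IC25, replicate 3 had 0.665 and 0.375, and replicate 2 had 0.0393 and 0.0456. The highest correlations with another number were -0.323, -0.0112 and 0.0209 for replicate 1. For replicate 3 they were 0.349, -0.0144 and -0.061, so both numbers exceeded them and replicate 2 did not. Deviations of 3 libraries sum to 0, so a middle library can show little. The second principal component (20.6%) ran in order of replicate number in each group. What same-numbered libraries share is not given in the labels and was not tested, and the report used no block. The other settings left these totals within 1.5 times of those reported. For single lists, 314 of 1936 counts over all settings, the reported ones included among the 1936, lay more than 1.5 times from the reported count. The 3-count floor of 0.249 CPM in the shallowest SRM_IC50 library limits what can be said of genes near 0 there.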

Other observations

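Small structural RNAs, which carry no long polyA tail and are poorly captured by polyA selection, were looked at after the data were seen. Of 15 such genes tested, 8 were lower at SRM_IC50 and 0 higher by edgeR's quasi-likelihood test, beside 12.7% lower and 14.9% higher over all genes. The log2 differences of these 8 from UNT ran from 0.83 to 2.30 at SRM_IC25 and from -2.05 to 0.05 at SRM_IC50. All 8 thus lay above UNT at SRM_IC25, and both ranges share the UNT libraries. The spliceosomal RNA gene RNU4-1 had 0.536, 0.0499 and 1.89 CPM at SRM_IC50, against 1.34, 17.8 and 16.2 CPM at SRM_IC25, so the groups overlapped and SRM_IC25 replicates 2 and 3 carried the log2 change of -4.19. Its near-identical copy RNU4-2 overlapped likewise. 7SK, which restrains transcription elongation, had 7.14, 4.24 and 11.7 CPM at SRM_IC50, against 25.0, 46.9 and 60.6 CPM at SRM_IC25 and 13.8, 9.23 and 26.8 CPM in UNT. The log2 change of 7SK was -2.58 (SE 0.47, adjusted p = 0.00266). Summed over 5140 genes of these types, the libraries had 82.2, 77.8 and 126 CPM at SRM_IC50, against 112, 205 and 222 CPM at SRM_IC25 and 97.8, 84.7 and 141 CPM in UNT. The lowest SRM_IC25 value lies below the highest SRM_IC50 value. Of the genes more than 2-fold lower at SRM_IC50, 13 also had a log2 change under -2 between FPM doses, and 4 of these were structural RNAs.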
